A study of Mus musculus with 21 samples.

Results

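The inhibitory coreceptors, phosphatases and adaptors that restrain the B cell receptor (BCR) were examined in RNA from sorted peritoneal B cells of WT and TET2-KO mice. Together with Cd48, which is of none of these classes, they comprised 10 genes, taken by name from the 56953 genes that were counted. The receptors were Cd22, Siglecg, Cd72, Fcgr2b and Pirb, the phosphatases were Ptpn6, Inpp5d and Ptpn22, Lax1 was the membrane adaptor, and Cd48 was a surface protein of the SLAM family. There were 21 libraries, each labelled with a subset, a genotype and a number. The TET2-KO mice gave 4 samples of B-1a, 3 of B-1b and 4 of B-2 cells, the WT mice gave 4, 4 and 2 in that order, and all mice were on the C57BL/6 background. The TET2-KO mice lacked the exons of the catalytic region in every tissue, so that other cells of the animal had also lost TET2. B-1 cells were sorted by low IgD, CD23 and B220, among other markers, and were divided by CD5 into B-1a (CD5+) and B-1b (CD5-). Age was not in the labels. The labels did not state that the samples of a group were separate mice, so the p-values below measure the spread between these samples.

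Engagement of the BCR activates the kinase Lyn, which phosphorylates activating and inhibitory receptors alike. The immunoreceptor tyrosine-based inhibitory motif (ITIM) in the tail of an inhibitory receptor then recruits the tyrosine phosphatase SHP-1, encoded by Ptpn6, or the lipid phosphatase SHIP, encoded by Inpp5d, which limit the calcium signal. B-1a cells of the peritoneal cavity are known for a weak calcium response to BCR ligation, and Siglec-G, encoded by Siglecg, is known to limit their numbers.

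The stretches of coding sequence that match the ITIM are shown for the 5 receptors, since this motif is the feature through which these receptors act. These stretches are matches to a pattern, and whether each recruits a phosphatase was not tested. Each runs from 5′ to 3′ on the coding strand, the capitals mark the tyrosine codon, and positions are those of GRCm39 with GENCODE vM39 coding exons.
Cd22, chr7:30566919-30566936: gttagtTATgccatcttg
Cd22, chr7:30566458-30566475: gtcactTACtcggtgata
Cd22, chr7:30566025-30566042: atccatTACtcagagctg
Cd22, chr7:30565965-30565982: gtagacTATgtgaccctc
Siglecg, chr7:43062112-43062129: ctggacTACatcaatgtg
Siglecg, chr7:43067403-43067420: ctccacTATgctgctctc
Siglecg, chr7:43067472-43067489: tctgatTACacagaggtc
Cd72, chr4:43454498-43454515: atcacgTATgcagacctg
Cd72, chr4:43454306-43454323: ctcaccTACgagaatgtg
Fcgr2b, chr1:170788640-170788657: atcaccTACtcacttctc
Pirb, chr7:3716861-3717102: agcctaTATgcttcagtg
Pirb, chr7:3715785-3715802: gtgaccTATgcccagctg
Pirb, chr7:3715695-3715712: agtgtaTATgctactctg
Cd22 held 4 matches on the cytoplasmic side of its most hydrophobic stretch, Siglecg and Pirb held 3 each, Cd72, whose tail is at the amino end, held 2, and Fcgr2b held 1. In Pirb the first match is divided by an intron, so its coordinates span more than the printed bases. The motif alone is common, since 49.2% of 21625 coding transcripts held at least 1 match anywhere. Cd22, Siglecg, Pirb and Cd72 also held 1 match each on the other side of that stretch. Of the members that are not receptors, Lax1 held 2 matches, and Ptpn6 and Ptpn22 held 1 each. No match was found in Cd48, which is anchored by lipid and has no cytoplasmic tail, or in Inpp5d.

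TET2 oxidizes methylated cytosines, most of which lie in CG pairs. The 250 bases before the outermost annotated start are shown for the 3 members that differed most between the subsets. That difference was seen among TET2-KO libraries and is not one between genotypes. They are written 5′ to 3′ on the strand of the gene, in GRCm39, with each CG in capitals.
Lax1, chr1:133617886-133618135, minus strand: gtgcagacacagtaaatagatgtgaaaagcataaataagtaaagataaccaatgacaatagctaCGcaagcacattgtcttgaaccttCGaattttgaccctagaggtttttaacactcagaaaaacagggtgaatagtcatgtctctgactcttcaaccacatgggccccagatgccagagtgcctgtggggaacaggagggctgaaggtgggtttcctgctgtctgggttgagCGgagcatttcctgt
Ptpn22, chr3:103766812-103767061, plus strand: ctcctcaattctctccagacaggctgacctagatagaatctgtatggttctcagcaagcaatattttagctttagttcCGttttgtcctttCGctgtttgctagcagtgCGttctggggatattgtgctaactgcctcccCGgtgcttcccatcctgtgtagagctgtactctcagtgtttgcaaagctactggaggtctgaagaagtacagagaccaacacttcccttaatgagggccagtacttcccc
Cd72, chr4:43455130-43455379, minus strand: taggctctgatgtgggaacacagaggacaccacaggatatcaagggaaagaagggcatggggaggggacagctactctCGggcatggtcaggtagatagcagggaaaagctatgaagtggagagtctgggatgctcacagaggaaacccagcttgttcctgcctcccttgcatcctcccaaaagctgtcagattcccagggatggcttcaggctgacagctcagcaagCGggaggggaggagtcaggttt
The window of Lax1 held 3 CG pairs, that of Ptpn22 held 4 and that of Cd72 held 2. Over all 10 members the number ranged from 1 in Siglecg to 5 in Inpp5d, beside a median of 6 over 21757 windows of this length before coding genes, of which 92.0% held at least 1. Methylation was not measured in these files.

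Total counts ranged from 9667187 to 24152518 per library, and the lowest count of any member in any library was 283, for Cd72. Levels are given as CPM, the count scaled to a common library size, normalized over all 21 libraries by the trimmed mean of M-values (TMM). In 5 WT libraries the subset markers did not follow the label. Fcer2a, which encodes the sort marker CD23, lay at 484 to 834 CPM in the B-2 TET2-KO libraries and at 4.61 to 42.7 CPM in B-1a or B-1b libraries of the same genotype. It lay at 815 CPM in the library labelled B-1a WT 1 and at 598 CPM in the library labelled B-1b WT 2, both in the B-2 range, but at 24.2 CPM in the library labelled B-2 WT 1. Cd5, the marker that divides B-1a from B-1b, stood at 18.7 CPM in the library labelled B-1b WT 1 and at 1.64 CPM in the library labelled B-1a WT 2, against 15.9 to 21.1 CPM in B-1a and 2.95 to 5.10 CPM in B-1b libraries of TET2-KO mice. The same 5 libraries held 7.36 to 13.5 CPM on olfactory receptor genes, against 65.7 to 1309 CPM in the other 16. They keep their labels below, each comparison of genotypes is also given without them, and the subsets were compared in TET2-KO libraries only. The summed level of 6 B cell markers was 12470.2 to 30037 CPM. The summed level of 12 macrophage markers, mostly Lyz2, was 4347 to 30379 CPM, with no marker at 0 throughout any group, and that of 8 T cell markers was 9.28 to 74.5 CPM. Among the TET2-KO libraries, those of B-2 cells held 259.6 to 1309 CPM on olfactory receptor genes and 27669 to 35576 detected genes, against 65.7 to 413 CPM and 17816 to 28140 genes in those of B-1a and B-1b cells, and the part of this in the differences between subsets was not tested. B-2 TET2-KO 4 stood apart with the smallest total and the largest TMM factor, 1.54, and B-1a TET2-KO 4 and B-1b TET2-KO 3 had the fewest genes detected of their groups, 18941 and 17816. In bulk RNA, fewer cells of a type and less RNA per cell cannot be told apart.

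All 10 members were detected in all 21 libraries and passed the filter on low counts in every comparison. Levels of different genes were compared per kilobase of exon (CPM per kb), as the median over 21 libraries. Cd48 was the highest at 428 CPM per kb, followed by Ptpn6 at 230 CPM per kb, Siglecg at 152 CPM per kb and Cd22 at 77.1 CPM per kb. Ptpn22 (46.2 CPM per kb), Pirb (41.4 CPM per kb), Fcgr2b (38.1 CPM per kb) and Lax1 (32.4 CPM per kb) formed the middle of the order. Cd72 (14.2 CPM per kb) and Inpp5d (13.6 CPM per kb) were the lowest. The ranges of every pair of neighbours in this order overlapped over the libraries, although Cd48 stood above Ptpn6 within 21 of 21 libraries and Lax1 above Cd72 within 19 of 21. Ptpn22 exceeded Pirb in 9 of 21 libraries, Pirb exceeded Fcgr2b in 8, Fcgr2b exceeded Lax1 in 13 and Cd72 exceeded Inpp5d in 11. These neighbours were not separated. The level of Cd72 is a lower estimate, because 41.6% of its exon bases also belong to Tesk1 on the other strand and fragments on more than 1 gene were not counted. The level of Pirb is uncertain because of its close paralogs, the Pira genes, since fragments that align to several places were left out. Across libraries Cd72 varied over an 11.2-fold range and Ptpn22 over a 10.1-fold range, whereas Cd22 varied 2.04-fold, Ptpn6 2.30-fold and Inpp5d 2.48-fold.

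**Figure D1:**
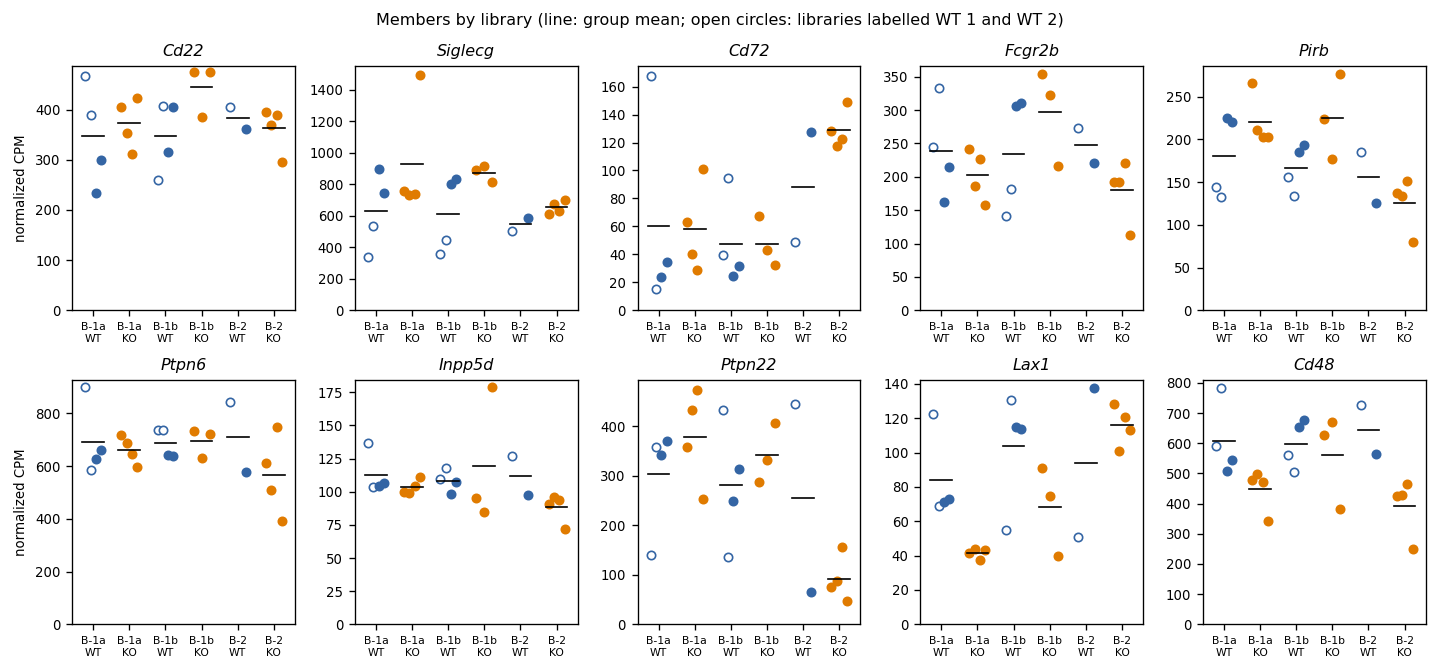
Normalized CPM (vertical axis of each panel, from 0) of the 10 members in the 21 libraries, by labelled subset and genotype (horizontal axis), with a line at each group's mean and open circles for the 5 libraries labelled WT 1 and WT 2. Lax1 lies between 37.4 and 43.7 CPM in the 4 B-1a TET2-KO libraries, below all 4 B-1a WT libraries, and the open circle of B-1a WT 1 lies far from the other 3 B-1a WT libraries for Cd72, Ptpn22 and Lax1.

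The subsets of TET2-KO mice were compared to ask which of these genes differ between B-1 and B-2 cells. In B-1a against B-2 cells, 4 of the 10 members passed the test, where 5.82% of 18555 genes did: Ptpn22 and Pirb were higher in B-1a cells, and Lax1 and Cd72 were lower. In B-1b against B-2 cells, 2 of the 10 passed, Ptpn22 higher and Cd72 lower, where 2.15% of genes did. Between B-1a and B-1b cells 0 of the 10 passed with edgeR or with DESeq2, where 0.205% of genes did with edgeR, and 2 members, Lax1 and Fcgr2b, had an unadjusted p under 0.05, as did 5.78% of genes. Before adjustment 4 members in B-1a against B-2 cells and 5 in B-1b against B-2 cells had a p under 0.05, beside 24.7% and 19.6% of genes. All 11 TET2-KO libraries entered 1 fit, so the 3 comparisons share samples. The members were chosen with earlier results of these data known, so their shares beside those of all genes are a description. The median log2 fold change of the members was 0.18 in B-1a against B-2 cells, beside -0.05 over all genes tested, and 0.38 in B-1b against B-2 cells, beside -0.10. Ranked from lowest to highest among all genes tested in B-1a against B-2 cells, Ptpn22 and Pirb stood at percentiles 98.67 and 92.23. Lax1 and Cd72 stood at 20.99 and 24.40, so falls of their size were common among the 18555 genes tested. Of these, 10906 had at least 10 counts in every TET2-KO library, and the percentiles were not taken among those alone. In B-1b against B-2 cells the percentiles were 98.86 for Ptpn22, 93.53 for Pirb, 29.49 for Lax1 and 20.23 for Cd72.

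Ptpn22 encodes a tyrosine phosphatase (PEP, known as Lyp in humans) that dephosphorylates Src-family kinases and opposes antigen receptor signaling. It stood at 357, 434, 472 and 253 CPM in the 4 B-1a TET2-KO libraries, at 287, 332 and 408 CPM in the 3 of B-1b cells and at 74.9, 88.3, 155 and 46.8 CPM in the 4 of B-2 cells. Every B-1 library was above every B-2 library. The log2 difference was 2.03 ± 0.30 (SE, adjusted p = 0.000654, edgeR with Benjamini-Hochberg adjustment) for B-1a over B-2 cells and 1.87 ± 0.32 (adjusted p = 0.00424) for B-1b over B-2 cells. Both calls held with any single library left out, and the second was lost when the 10 WT libraries joined the fit (adjusted p = 0.117).

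Lax1 encodes a transmembrane adaptor (LAX) that is phosphorylated after antigen receptor engagement and binds Grb2, and whose loss is known to raise BCR signaling. Its levels in TET2-KO mice were 41.5, 43.7, 37.4 and 43.3 CPM in B-1a cells, 91.0, 74.8 and 39.8 CPM in B-1b cells and 128, 101, 121 and 113 CPM in B-2 cells. The B-2 libraries were above all B-1 libraries, while those of B-1a and B-1b cells overlapped through the library B-1b TET2-KO 3. Lax1 was lower in B-1a than in B-2 cells by a log2 fold change of -1.51 ± 0.22 (SE, adjusted p = 0.000484, edgeR with Benjamini-Hochberg adjustment). In B-1b against B-2 cells the log2 fold change was -0.80 ± 0.24 (adjusted p = 0.0959) and did not pass, but it passed with DESeq2, with no filter on low counts, with at least 10 counts in every library and with RLE size factors (adjusted p = 0.00688 to 0.0445). In B-1a against B-1b cells it was -0.72 ± 0.23 (unadjusted p = 0.00692, adjusted p = 0.639 with edgeR), and without B-1b TET2-KO 3 it was -1.0 with an adjusted p of 0.0279.

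Cd72 encodes a lectin-like receptor whose tail recruits SHP-1 and which binds CD100. It stood at 63.5, 40.0, 28.6 and 101 CPM in B-1a, 67.1, 42.9 and 32.5 CPM in B-1b and 128, 117, 123 and 149 CPM in B-2 libraries of TET2-KO mice, and all B-1 libraries were below all B-2 libraries. Its log2 fold change was -1.19 ± 0.33 (adjusted p = 0.0452, edgeR) in B-1a and -1.49 ± 0.36 (adjusted p = 0.0469) in B-1b cells, both against B-2 cells. Each call was close to the threshold of 0.05 and was lost in 8 of the 11 fits that left out a library, where the adjusted p went up to 0.142 and 0.186.

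Pirb encodes a receptor for MHC class I that B cells share with myeloid cells. Its levels were 266, 211, 202 and 202 CPM in B-1a cells, 224, 177 and 276 CPM in B-1b cells and 138, 134, 152 and 79.5 CPM in B-2 cells of TET2-KO mice, and no B-2 library reached a B-1 library. The log2 difference from B-2 cells was 0.78 ± 0.21 (adjusted p = 0.0397, edgeR) in B-1a and 0.81 ± 0.22 (adjusted p = 0.0798) in B-1b cells. The B-1a call was lost in 7 of 11 fits that left out a library, with an adjusted p of up to 0.0985, and the B-1b difference passed with DESeq2 and with no filter. The summed macrophage markers lay at 4824 to 28896 CPM in these B-1a libraries, 6348 to 15262 CPM in the B-1b libraries and 4347 to 19832 CPM in the B-2 libraries, and their part in the level of Pirb was not tested.

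**Figure D2:**
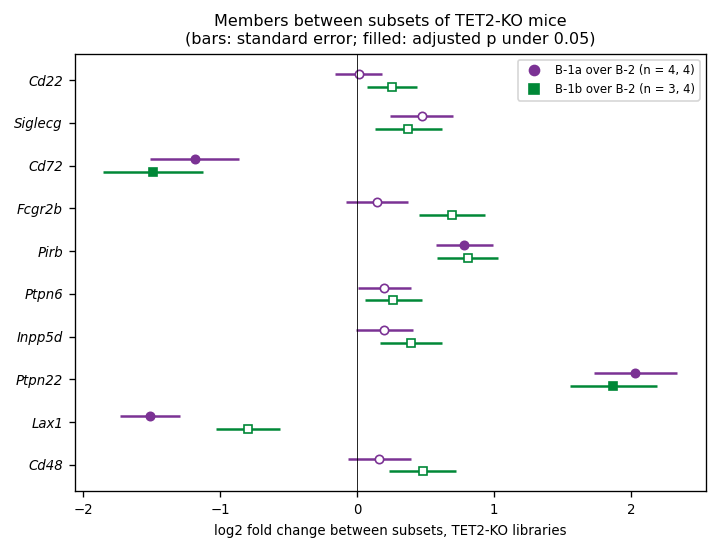
Log2 fold change (horizontal axis) of each member (vertical axis) in B-1a cells (circles) and B-1b cells (squares) over B-2 cells, in TET2-KO libraries only. Bars are standard errors and filled symbols mark an adjusted p under 0.05, which were Ptpn22 and Pirb on the right and Lax1 and Cd72 on the left for B-1a cells, and Ptpn22 and Cd72 for B-1b cells.

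The other 6 members did not pass between the subsets. Siglecg was at 758, 730.0, 740.0 and 1496 CPM in B-1a, 891, 919 and 813 CPM in B-1b and 609, 677, 631 and 699.6 CPM in B-2 libraries of TET2-KO mice. All B-1 libraries exceeded all B-2 libraries, but the log2 differences of 0.47 ± 0.23 and 0.37 ± 0.24 had adjusted p-values of 0.215 and 0.411 (edgeR). Without the high library B-1a TET2-KO 4, the difference of B-1a from B-2 cells was 0.15. Fcgr2b, the only Fc receptor for IgG that B cells carry, ranged over 158 to 241 CPM in B-1a, 216 to 354 CPM in B-1b and 113 to 221 CPM in B-2 cells, with overlap between all 3. Its log2 fold change was 0.69 ± 0.24 in B-1b against B-2 cells (adjusted p = 0.149, edgeR). Inpp5d was above all B-2 libraries in the 4 B-1a libraries (99.2 to 111 against 72.1 to 96.2 CPM), with a log2 difference of 0.20 ± 0.21. Cd22, a sialic acid-binding receptor that recruits SHP-1, differed least, by 0.01 ± 0.17 between B-1a and B-2 cells on the log2 scale, and Ptpn6 and Cd48 gave 0.20 and 0.16. In all, the B-1a and B-2 libraries did not overlap for 6 of the 10 members, where 19.0% of all genes tested were so separated, the B-1b and B-2 libraries for 5, against 19.3%, and the B-1a and B-1b libraries for 0, against 6.05%.

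In the 3 WT libraries whose Fcer2a level did not follow the label, Cd72 and Ptpn22 lay away from the other libraries of that label. Cd72 stood at 167 CPM in the library labelled B-1a WT 1 and at 94.6 CPM in that labelled B-1b WT 2, where Fcer2a was high, against 14.95 to 34.6 CPM in the other 3 B-1a WT libraries and 24.7 to 39.3 CPM in the other 3 of B-1b cells. Ptpn22 stood at 139.8 and 135 CPM in the same libraries, against 343 to 370.0 and 249 to 432 CPM in the others with those labels. In the library labelled B-2 WT 1, where Fcer2a was low, Ptpn22 was at 446 CPM, Cd72 at 48.7 CPM and Lax1 at 50.7 CPM. The other B-2 WT library, WT 4, held 65.2 CPM of Ptpn22, 128 CPM of Cd72 and 137 CPM of Lax1, near the B-2 TET2-KO libraries. In the other two WT libraries with discordant markers, where Cd5 but not Fcer2a went against the label, both members lay at B-1 levels: B-1a WT 2 held 359 CPM of Ptpn22 and 14.95 CPM of Cd72, and B-1b WT 1 held 432 and 39.3 CPM. Over all 21 libraries Pearson's r of the log2 levels was -0.75 between Ptpn22 and Lax1, -0.80 between Ptpn22 and Cd72 and 0.79 between Ptpn22 and Pirb. These correlations are a description of points that share subset and genotype.

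**Figure D3:**
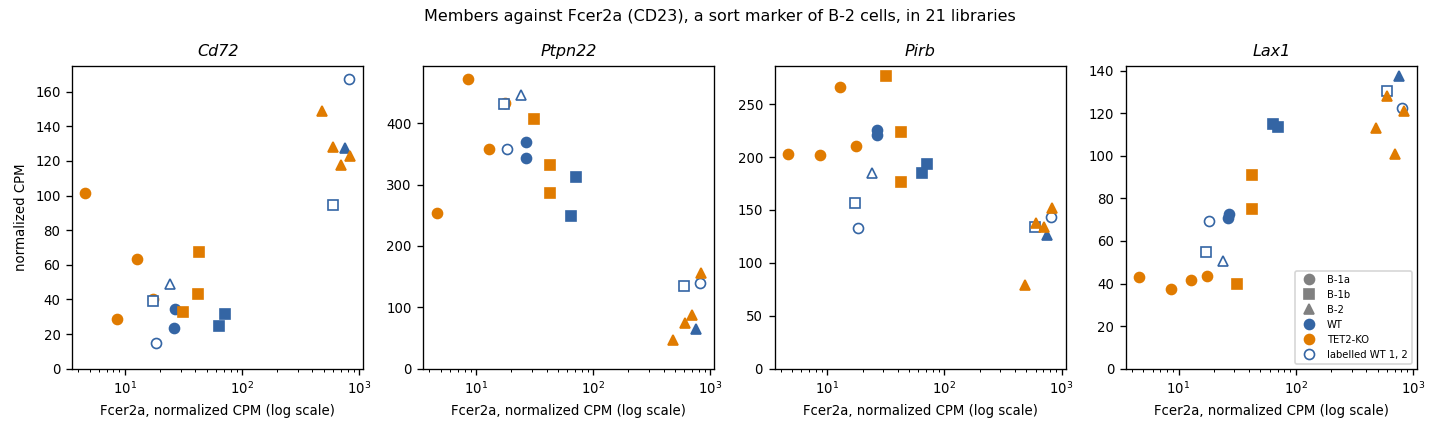
Normalized CPM of Cd72, Ptpn22, Pirb and Lax1 (vertical axes, from 0) against that of Fcer2a, the gene of the sort marker CD23 (horizontal axes, log scale), in 21 libraries, with shapes for the labelled subset, colours for the genotype and open symbols for the 5 libraries labelled WT 1 and WT 2. The open circle of B-1a WT 1 (Fcer2a 815 CPM) and the open square of B-1b WT 2 (598 CPM) lie near the triangles of B-2 cells in each panel, and the open triangle of B-2 WT 1 (24.2 CPM) lies among the B-1 libraries.

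The genotypes were compared within each subset, to ask whether loss of TET2 changed these genes. Tet2 itself did not check the labels, since the count covers the whole gene and not the deleted exons alone: it stood at 18.0 to 29.2 CPM in B-1a TET2-KO and 8.46 to 27.2 CPM in B-1a WT libraries. In B-1a cells 0 of the 10 members passed with edgeR, where 0.0503% of 13923 genes did. Of the members, 2 had an unadjusted p under 0.05 (Lax1 and Cd48, beside 7.85% of genes). With DESeq2, which passed 186 genes in this comparison, 1 member, Lax1, passed. In B-1b cells 0 of the 10 passed with either tool, where 0% of 14368 genes did with edgeR, and 0 had an unadjusted p under 0.05, beside 5.48%. In B-2 cells 0 of the 10 passed with either tool, where 0% of 19786 genes did with edgeR, and 1, Cd48, had an unadjusted p under 0.05, beside 8.86%. The B-1a libraries of the genotypes did not overlap for 2 of the members, Lax1 and Cd48, both lower in TET2-KO cells, where 5.55% of genes were separated. For B-1b cells this held for 0 members, against 7.68% of genes. For B-2 cells, with 2 WT libraries, it held for 4 members, against 20.0% of genes. Of these, Siglecg was higher and Fcgr2b, Inpp5d and Cd48 were lower in TET2-KO cells.

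With all libraries, Lax1 showed the largest difference of the 10 between the genotypes of B-1a cells. Its levels were 123, 69.2, 71.0 and 72.7 CPM in the 4 WT libraries and 41.5, 43.7, 37.4 and 43.3 CPM in the 4 TET2-KO libraries, with means of 83.9 ± 25.8 and 41.5 ± 2.88 CPM (SD, n = 4 each). All TET2-KO libraries were below all WT libraries, of which WT 1, with the high Fcer2a, was the highest. The log2 fold change was -0.98 ± 0.19 (SE), with an unadjusted p of 0.000566 and an adjusted p of 0.129 (edgeR). With DESeq2 it was -1.0 with an adjusted p of 0.00493, and with no filter on low counts -1.04 with an adjusted p of 2.68e-05 (edgeR). Without WT 1 and WT 2 it was -0.78 with an adjusted p of 0.335, and when each library was left out in turn it ran from -1.07 to -0.75. Lax1 was higher in B-2 than in B-1a cells of TET2-KO mice. Summed, 6 B-2 markers lay at 7952 CPM in B-1a WT 1 and at 1584 to 1955 CPM in B-1a WT 2, 3 and 4. They lay at 838 to 1648 CPM in the B-1a TET2-KO libraries. Their part in the difference of Lax1 was not tested.

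In B-1b cells Lax1 was at 54.7, 131, 115 and 114 CPM in WT and 91.0, 74.8 and 39.8 CPM in TET2-KO libraries. The groups overlapped through the library labelled B-1b WT 1, which had the Cd5 level of a B-1a library, and the log2 fold change was -0.58 ± 0.34 (adjusted p = 0.838, edgeR), or -0.74 without WT 1 and WT 2 (adjusted p = 0.999). In B-2 cells it was at 50.7 and 137 CPM in WT and 128, 101, 121 and 113 CPM in TET2-KO libraries, and the sign of the log2 fold change turned from 0.31 to -0.23 without WT 1. An interaction term tested whether the effect of TET2-KO differed between both B-1 subsets, and gave -0.41 ± 0.40 for Lax1 (log2, adjusted p = 1.00, edgeR) and -0.05 without WT 1 and WT 2. In this test 0 of the 10 members passed with edgeR or DESeq2, where 0% of 15972 genes passed with edgeR, and 0 members had an unadjusted p under 0.05, beside 1.57% of genes.

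Cd48 encodes a ligand of CD2 and CD244. It stood at 592, 783, 509 and 545 CPM in B-1a WT and 478, 497, 471 and 343 CPM in B-1a TET2-KO libraries, without overlap, and at 726 and 563 CPM in B-2 WT and 424, 428, 464 and 251 CPM in B-2 TET2-KO libraries, again without overlap. The log2 fold changes were -0.41 ± 0.17 (unadjusted p = 0.0412, adjusted p = 0.624, edgeR) and -0.70 ± 0.29 (unadjusted p = 0.0408, adjusted p = 0.531). Without WT 1 and WT 2 they were -0.23 and -0.51, and in B-1b cells the value was -0.08 ± 0.22 with all libraries and -0.25 without those. The summed level of 6 B cell markers was 21592 to 27898 CPM in B-1a WT and 15514 to 25871 CPM in B-1a TET2-KO libraries. It was 18920 to 30037 CPM in B-2 WT and 12470 to 19993 CPM in B-2 TET2-KO libraries. In B-1b libraries it was 20563 to 29074 CPM in WT and 16426 to 24721 CPM in TET2-KO. The part of these sums in the level of Cd48 was not tested.

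Among the receptors, Siglecg was at 341, 535, 896 and 748 CPM in B-1a WT and 758, 730.0, 740.0 and 1496 CPM in B-1a TET2-KO libraries. The WT libraries 1 and 2 were low and TET2-KO 4 was high, while the remaining 5 libraries lay together. The log2 fold change was 0.60 ± 0.34 with all libraries and 0.19 without WT 1 and WT 2, and in B-1b cells it was 0.54 ± 0.31 and 0.10. Cd22 was at 467, 389, 233 and 299 CPM in B-1a WT and 404, 353, 313 and 424 CPM in B-1a TET2-KO libraries, which overlapped, and its log2 fold change moved from 0.15 to 0.50 without WT 1 and WT 2 (unadjusted p = 0.0351, adjusted p = 1.00, edgeR). Cd72 moved from 0.01 ± 0.71 to 1.01 in B-1a cells and from 0.03 ± 0.44 to 0.75 in B-1b cells. The WT libraries that remained, 3 and 4 of each subset, held 23.7 to 34.6 CPM of Cd72, where the TET2-KO libraries held 28.6 to 101 CPM in B-1a and 32.5 to 67.1 CPM in B-1b cells. Fcgr2b gave -0.20 in B-1a and 0.36 in B-1b cells, and both signs turned without WT 1 and WT 2, to 0.11 and -0.05. For Pirb it was 0.32 and 0.46, and -0.01 and 0.26 without them.

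The phosphatases that the receptors recruit differed between the genotypes of both B-1 subsets by less than their standard errors. Ptpn6 gave a log2 fold change of -0.03 ± 0.16 in B-1a and 0.05 ± 0.16 in B-1b cells, and Inpp5d gave -0.08 ± 0.13 and 0.18 ± 0.26. Without WT 1 and WT 2 Ptpn6 gave 0.05 and 0.12, and Inpp5d gave -0.01 and 0.23. In B-2 cells Ptpn6 gave -0.31 ± 0.31 and Inpp5d gave -0.32 ± 0.21, or -0.02 and -0.13 without WT 1. Of the B-1b TET2-KO libraries, number 3 was high for Inpp5d at 179 CPM, against 95.6 and 84.5 CPM in the other two, and without it the value was -0.25. Ptpn22 gave 0.35 ± 0.31 in B-1a and 0.31 ± 0.34 in B-1b cells, and 0.10 and 0.29 without WT 1 and WT 2. In B-2 cells it stood at 446 and 65.2 CPM in the WT libraries and 74.9, 88.3, 155 and 46.8 CPM in the TET2-KO libraries. The B-2 value therefore rested on which WT library was kept: -1.46 ± 0.66 with both, 0.50 with WT 4 alone and -2.24 with WT 1 alone (adjusted p = 0.0468, edgeR, the lone library being assumed to vary like the others).

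**Figure D4:**
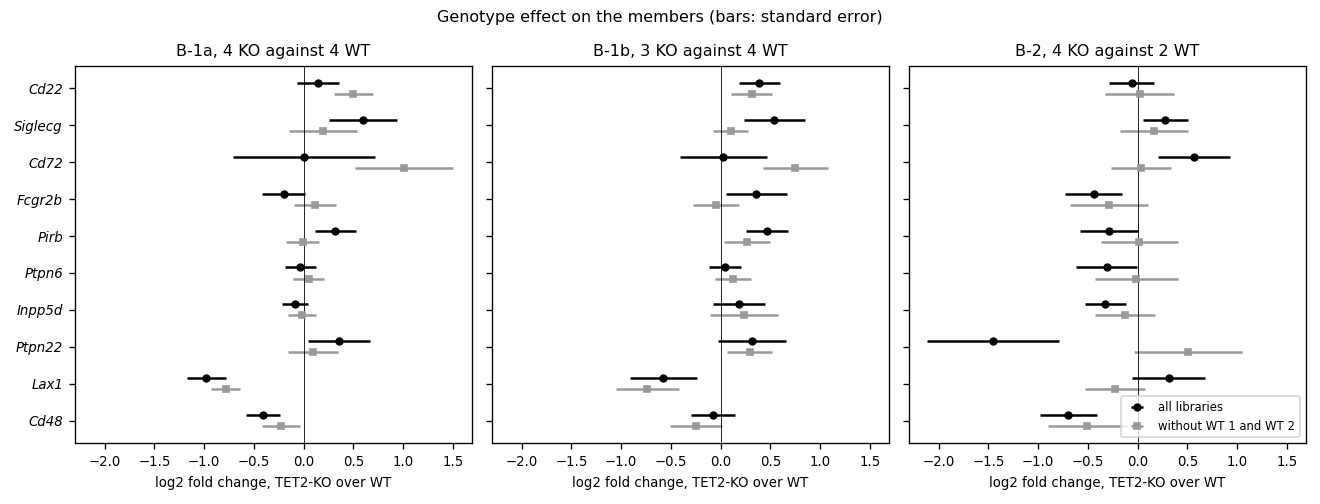
Log2 fold change of TET2-KO over WT (horizontal axes) for each member (vertical axis), with a panel for each of the 3 subsets, from all libraries (black circles) and with WT 1 and WT 2 left out (grey squares), with standard errors as bars. Lax1 in B-1a cells lies at -0.98 with all libraries and at -0.78 without those, and Ptpn22 in B-2 cells crosses from -1.46 to 0.50.

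Genes around the members were followed in 4 lists. They held 16 activating components of BCR signaling, 9 other inhibitory receptors, 19 other negative regulators and 9 further genes of the SLAM family and its adaptors. The filter left 8 of the receptors and 18 of the regulators to test within each subset, and 9 and 18 for the interaction. Of the genes tested, 0 passed in any comparison of genotypes with edgeR. In each list 0 to 3 genes had an unadjusted p under 0.05, beside 7.85% of all genes in B-1a cells, 5.48% in B-1b cells, 8.86% in B-2 cells and 1.57% for the interaction. Slamf6, a SLAM-family receptor, came nearest, at a log2 fold change of -1.32 in B-1a cells (adjusted p = 0.0888, edgeR), and -0.98 without WT 1 and WT 2. With DESeq2, 186 genes passed between the genotypes of B-1a cells, 60 in B-1b cells, 169 in B-2 cells and 1 for the interaction. Among the 186 were 2 genes of the SLAM list and 0 genes of the other lists, and 0 genes of any list passed in the other comparisons of genotypes. DESeq2 was not run without WT 1 and WT 2. In the other lists the gene with the smallest p in B-1a cells was Cr2 at -2.82, Ptpn12, a tyrosine phosphatase, at 0.85 and Fcrl5, an Fc receptor-like protein, at 0.55 (log2, adjusted p = 0.470, 0.622 and 0.646, edgeR). Without WT 1 and WT 2 the value of Cr2 was -0.67. The median log2 fold change of the 16 activating components in B-1a cells was -0.22, beside 0.02 over all genes tested, and -0.094 without WT 1 and WT 2, beside 0.02.

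Between B-1a and B-2 cells of TET2-KO mice, where 5.82% of all genes passed, 3 of 16 activating components passed. Cr2, the complement receptor CD21 and a B-2 marker, was lower at -4.12 (log2), and Syk, the kinase that binds the phosphorylated BCR, and Pik3cd, the catalytic subunit of the B cell phosphoinositide kinase, were higher at 0.75 and 0.62 (adjusted p = 0.0285 and 0.0428, edgeR). Of the 8 other inhibitory receptors tested 2 were higher, Cd5 at 2.94 and Fcrl5 at 2.52, and the sort itself selected on CD5. Of the 18 other negative regulators tested 3 passed. Ubash3b, a phosphatase that limits antigen receptor signaling, was higher at 2.00, the adaptor Dok3 was higher at 0.73, and Pag1, an adaptor that holds the kinase Csk at the membrane, was lower at -1.56. Of the 9 genes of the SLAM list 2 passed, Slamf6 and Slamf7, which were lower at -1.18 and -1.06. In B-1b against B-2 cells, where 2.15% of all genes passed, Fcrl5 (2.20), Ubash3b (1.38) and the SLAM adaptor gene Sh2d1b1 (2.48) were higher and Cr2 (-2.86) was lower, which made 1 gene of each list. With the shared library number as a block, 6 of the other negative regulators passed in B-1a against B-2 cells in place of 3, and the gene count rose from 1080 to 1638. Between B-1a and B-1b cells, where 0.205% of all genes passed, Cd5 was the 1 gene of the lists that did, at 2.28, and with the block 1 activating component passed as well, while the gene count rose from 38 to 103.

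The genes most like each member were found by Pearson's r of log2 CPM over the 21 libraries, among 8199 genes with a mean of at least 10 CPM. For Lax1 they were Ccr6 (0.91), a chemokine receptor, Pkib (0.90) and Gpr171 (0.89). For Ptpn22 they were Diras2 (0.97), Relt (0.96) and Ryk (0.96), and for Cd72 they were Ighd (0.87), which encodes the IgD heavy chain and is a sort marker, Slamf1 (0.85) and Zfp318 (0.83). Pirb was most like Nt5e (0.89), which encodes CD73, and Fcgr2b most like Tmem175 (0.84). Ptpn6 was most like Plcg2 (0.90), the phospholipase of BCR signaling, and Inpp5d most like Flii (0.93). Siglecg was most like Mirt1 (0.97), Cd22 most like Il10ra (0.81) and Cd48 most like Yipf3 (0.92). The libraries share subset, genotype and depth, so these values are a description.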

How the data were processed

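RNA-seq was performed on 21 libraries of sorted peritoneal B cells. The authors used fastp for trimming and STAR for alignment to GRCm39 (versions not given in the sources used here) and counted fragments per gene of GENCODE vM32 with featureCounts v1.6.1, without using strand and leaving out fragments on several genes or places. They deposited raw counts of 56953 genes per library, from 9667187 to 24152518 in total. The paper and the labels describe the cDNA synthesis differently, as full-length cDNA amplified by PCR and as priming with poly-T and random primers. Symbols came from GENCODE vM39 by identifier and were found for 56310 of the genes. No 2 libraries had identical counts.

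The counts were tested with edgeR 4.0.16 (quasi-likelihood, robust, TMM factors, filterByExpr) in R 4.3.3, with Benjamini-Hochberg adjustment over all genes tested and a threshold of 0.05. Each comparison of genotypes used the libraries of its subset, the interaction those of B-1a and B-1b cells, and the subsets were compared in the 11 TET2-KO libraries. Levels per kb used exon length, and likeness used log2(CPM + 1). The members and lists were chosen with earlier results of these data known. Text names all members, up to 4 passing genes per list (or the gene with the smallest p) and the genes most like each member. Alternatives were DESeq2 1.42.0, other filters and scalings, all groups in 1 fit, a replicate block, each library left out and the omission of WT 1 and WT 2. Among TET2-KO libraries, same-numbered ones deviated together (r = 0.352 to 0.680 for 4 of 4 pairs of B-1a and B-2, 0.286 to 0.516 for 3 of 3 pairs of B-1a and B-1b, and 0.035 to 0.489 for 3 pairs of B-1b and B-2), a pairing read from the data, not the labels. The scripts were tested on simulated counts.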

Additional observations from a re-analysis of the deposited data

Results flagged for a closer look

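In 7 of the 40 groups of 4 libraries examined (10 members in the 4 groups of this size), 1 library lay farther from the other 3 than the 95% critical value of Dixon's test allows. Chance gives about 1 such group in 20, and the groups are not independent, since 4 of the 7 came from 1 library. In the library labelled B-1a WT 1, whose Fcer2a level was that of B-2 cells, Cd72 was at 167 CPM, against 14.95 to 34.6 CPM in the other 3 B-1a WT libraries. In the same library Lax1 was at 123 CPM, against 69.2 to 72.7 CPM, and Inpp5d at 137 CPM, against 104 to 107 CPM. Its Ptpn22 was the low value, at 139.8 CPM, against 343 to 370.0 CPM. In the library B-1a TET2-KO 4, Siglecg was at 1496 CPM, against 730.0 to 758 CPM in the other 3 B-1a TET2-KO libraries, and Cd48 at 343 CPM, against 471 to 497 CPM. In the library B-1a TET2-KO 1, Pirb was at 266 CPM, against 202 to 211 CPM. Without the library labelled B-1a WT 1 the log2 fold change of Cd72 between the genotypes of B-1a cells was 1.28.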

How the results depend on the processing

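Across the alternatives other than leaving out single libraries, 491 of 530 values kept their direction and their side of the threshold, 28 changed sign, 8 came to pass and 3 no longer passed. In the fits without 1 library each, 610 of 690 did so. Each member had at least 283 counts in every library, and there were 2 to 4 libraries per group. The causes of the changes below were not tested.

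The counts of genes passing rose with DESeq2 to 186, 60 and 169 between the genotypes in each subset (B-1a, then B-1b, then B-2), to 1 for the interaction, and to 3478, 2872 and 141 for B-1a over B-2, B-1b over B-2 and B-1a over B-1b cells. With no filter on low counts they were, in the same order, 318, 131, 167, 144, 1699, 870 and 123. The members passing were 1 between the genotypes of B-1a cells and 4 in B-1b over B-2 cells under each of these settings. With all 6 groups in 1 fit, 80 genes passed between the genotypes of B-1a cells, 7 genes and 0 members in B-1b over B-2 cells, and 6 genes in B-1a over B-1b cells. In that fit Cd72 no longer passed in either B-1 subset over B-2 cells (adjusted p = 0.290 and 0.271, edgeR). Without WT 1 and WT 2, 0 genes passed between the genotypes of B-1a cells.

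With the library number as a block (replicate block), 48 genes passed between the genotypes of B-1a cells, 1 for the interaction, 1638 in B-1a over B-2, 667 in B-1b over B-2 and 103 in B-1a over B-1b cells, and the number of members that passed changed in none of the comparisons. The log2 fold changes that changed sign under the block were -0.29 for the interaction of Siglecg, and in B-1a over B-1b cells -0.12 for Siglecg, 0.11 for Pirb and 0.042 for Ptpn6. Between genotypes, same-numbered libraries of 1 subset correlated over 0.1 in 3 of 9 pairs, so there the block joins libraries that share only a number.

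Cd22 in B-1a over B-2 cells went to -0.079 with DESeq2, -0.080 with RLE size factors and -0.12 with at least 10 counts in every library, and between the genotypes of B-2 cells to 0.091 with the last of these. Cd72 between the genotypes of B-1a cells went to -0.031 with DESeq2, -0.072 with no filter, -0.00063 with RLE size factors, -0.0053 with TMM factors set without immunoglobulin genes and -0.045 with all 6 groups, and between those of B-1b cells to -0.0054 with no filter and -0.0024 with all 6 groups. Without WT 1 and WT 2 the sign changed for Fcgr2b (0.11), Pirb (-0.0094) and Ptpn6 (0.050) in B-1a cells, for Fcgr2b (-0.048) in B-1b cells, and for Cd22 (0.022), Pirb (0.013), Ptpn22 (0.50) and Lax1 (-0.23) in B-2 cells. For the interaction it changed for Cd22 (0.18), Cd72 (0.25), Fcgr2b (0.16), Ptpn22 (-0.20) and Cd48 (0.015).

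When single libraries were left out, the genes passing between genotypes numbered 0 to 6 in B-1a and 0 to 576 in B-2 cells, where 0 to 1 member passed. In B-1a over B-2 cells 608 to 2015 genes and 2 to 4 members passed, in B-1b over B-2 cells 177 to 768 genes and 1 to 2 members, and in B-1a over B-1b cells 15 to 57 genes and 0 to 1 member. The log2 fold changes whose sign changed ran, between the genotypes of B-1a cells, from -0.00041 to 0.31 for Cd22, -0.43 to 1.28 for Cd72, -0.12 to 0.11 for Ptpn6 and -0.14 to 0.011 for Inpp5d, and between those of B-1b cells from -0.30 to 0.59 for Cd72, -0.24 to 0.13 for Cd48 and -0.25 to 0.37 for Inpp5d. Between the genotypes of B-2 cells they ran from -0.11 to 0.050 for Cd22, -0.51 to 0.013 for Pirb, -2.24 to 0.50 for Ptpn22 and -0.23 to 1.23 for Lax1. For the interaction they ran from -0.29 to 0.27 for Siglecg, -0.61 to 1.25 for Cd72, -0.16 to 0.062 for Ptpn6, -0.23 to 0.27 for Ptpn22, -0.29 to 0.035 for Pirb and -0.46 to 0.16 for Inpp5d. In B-1a over B-2 cells they ran from -0.081 to 0.089 for Cd22 and -0.011 to 0.25 for Fcgr2b, in B-1b over B-2 cells from -0.052 to 0.61 for Inpp5d, and in B-1a over B-1b cells from -0.22 to 0.20 for Siglecg, -0.097 to 0.64 for Cd72, -0.16 to 0.14 for Pirb and -0.38 to 0.21 for Inpp5d.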
